A study of Mus musculus with 11 samples.

Results

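The 1 array of double negative 2 (DN2) thymocytes was compared with the 2 arrays of early thymic precursors (ETP), gene by gene. Members were taken from the sample titles, which gave 3 of the 11 arrays of the series, and all 19938 genes with a probe set of their own were tested. ETP and DN2 are consecutive populations of immature T cell progenitors, both labelled as thymus of C57BL/6J mice and without any transgene, deletion or treatment. The series also holds 2 arrays each of double negative 3 (DN3) thymocytes and of 3 bone marrow populations of the same strain, namely common lymphoid progenitors (CLP), the multipotent progenitors primed for lymphoid fates (LMPP) and blood stem cells (HSC). Total RNA of each sorted population was hybridised to an Affymetrix array, and the deposited values are log2 intensities. Sort gates, numbers of animals and any pooling of animals are not given by the labels. Bone marrow is written in the free-text descriptions of these thymic samples and in the cell type labels of DN2 and DN3, but the tissue field, followed here, gives thymus.

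Progenitors that enter the thymus from the marrow meet Notch ligands on the thymic epithelium and pass through the ETP, DN2 and DN3 stages. ETP still hold potential for myeloid, dendritic, mast and natural killer cells, which is lost step by step. DN2 cells are defined by the interleukin-2 receptor alpha chain (CD25, gene Il2ra) together with Kit and CD44, switch on genes of the T cell receptor machinery, and begin to rearrange the receptor genes, while assembly of the pre-T cell receptor follows at DN3.

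The largest rise among the called genes was that of Il2ra, and a pair of CD3 genes that lie next to each other rose too, so the sequences around their start sites are shown. Each runs 5′ to 3′ on the gene's strand, from 250 bases before the start to 50 bases from it on, as given by RefSeq for GRCm38.p6: Il2ra at chr2:11642542-11642841 on the plus strand, Cd3g at chr9:44980382-44980681 on the minus strand and Cd3d at chr9:44981536-44981835 on the plus strand. Capitals mark the 4 motifs searched on both strands. GTGGGAA is bound by RBPJ, the DNA-binding partner of Notch. CACCTG is bound by E proteins. AGATAA belongs to the family of Gata3. CTTTGAA belongs to the family of Lef1. The CD3 pair was chosen after its values were seen.
Il2ra: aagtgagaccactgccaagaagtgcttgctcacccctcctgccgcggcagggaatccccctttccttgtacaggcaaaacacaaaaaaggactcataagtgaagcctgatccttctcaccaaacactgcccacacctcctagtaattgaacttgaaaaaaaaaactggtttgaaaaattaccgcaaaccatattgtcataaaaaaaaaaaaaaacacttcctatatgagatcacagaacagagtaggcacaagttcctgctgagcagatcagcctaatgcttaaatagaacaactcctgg
Cd3g: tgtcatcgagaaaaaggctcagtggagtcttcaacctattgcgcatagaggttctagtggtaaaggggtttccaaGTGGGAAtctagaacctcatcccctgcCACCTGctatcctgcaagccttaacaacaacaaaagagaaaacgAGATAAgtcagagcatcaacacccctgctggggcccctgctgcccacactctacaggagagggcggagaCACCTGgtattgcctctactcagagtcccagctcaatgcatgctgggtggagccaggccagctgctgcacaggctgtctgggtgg
Cd3d: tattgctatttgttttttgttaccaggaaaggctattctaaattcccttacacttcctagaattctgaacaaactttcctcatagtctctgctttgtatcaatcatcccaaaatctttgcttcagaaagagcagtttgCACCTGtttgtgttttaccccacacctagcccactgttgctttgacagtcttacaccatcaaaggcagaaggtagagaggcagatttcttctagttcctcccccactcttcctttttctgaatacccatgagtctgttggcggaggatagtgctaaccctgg

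The start sites of Cd3g and Cd3d, which are read away from each other, are 1355 bases apart in that build. The Cd3g window held 4 matches, with GTGGGAA beginning at -175 from the start site, CACCTG at -148 and -35, and AGATAA at -104. The Cd3d window held 1 match, CACCTG at -112, and the Il2ra window held none of the 4 motifs. A match describes the letters only, and its absence says nothing about the factor.

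In DN2, the receptor genes Il2ra and Il7r rose, as did 4 of 14 measured genes of the CD3 complex and recombination and 4 of 20 of T cell receptor signalling. Flt3 fell, as did 4 of 22 progenitor transcription factors, 9 of 27 myeloid genes (2 without ETP replicate 2) and 6 of 19 genes of dendritic cells or MHC class II. Of the 19938 genes, 199 were called, which is 0.998% of those tested; a call means a limma adjusted p (Benjamini-Hochberg, two-sided) under 0.05. Of the called genes, 64 were higher in DN2 (0.321% of all genes) and 135 were lower (0.677%). The rises ran from 1.69-fold to 16.9-fold and the falls from 1.63-fold to 14.8-fold, and 150 calls were at least 2-fold (49 higher, 101 lower; 0.752% of all genes). The median difference over all genes was -0.0023 on the log2 scale, with 49.3% of differences above 0. An unadjusted p under 0.05 (limma) was found for 1434 of the 19938 genes, beside which such counts in the lists below stand. In each of the 199 genes the DN2 value lay outside both ETP values, as it did for 66.4% of all genes.

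DN2 has no replicate, so the spread came from the other 5 populations and DN2 was assumed to vary as they do. The median standard error of a difference was 0.17 on the log2 scale. For 64 of the genes called lower, among them Adgrl4, Flt3 and Ms4a3, the DN2 value was below the array median of 6.07, and for 19 called higher the ETP mean was. Part of such a value may be background, so these folds and their order may understate the change in transcript. Leaving out either array of HSC, LMPP, CLP or DN3 gave the same fit of DN2 against ETP, in which only the spread changed. Only leaving out an ETP array changed the difference itself, so the fits with 1 array left out are not all separate checks. When each of the other 10 arrays was left out in turn, 78 of the 199 calls held every time (36 higher, 42 lower). Without ETP replicate 1 there were 137 calls (41 higher, 96 lower), and without ETP replicate 2 there were 92 (45 higher, 47 lower), 83 of them among the 199. The arrays correlated over all genes at r = 0.9936 between the ETP pair and at 0.9875 and 0.9878 between DN2 and each ETP array. Labels number the replicates without saying that they came from separate animals, so p-values may measure only technical spread.

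**Figure D1:**
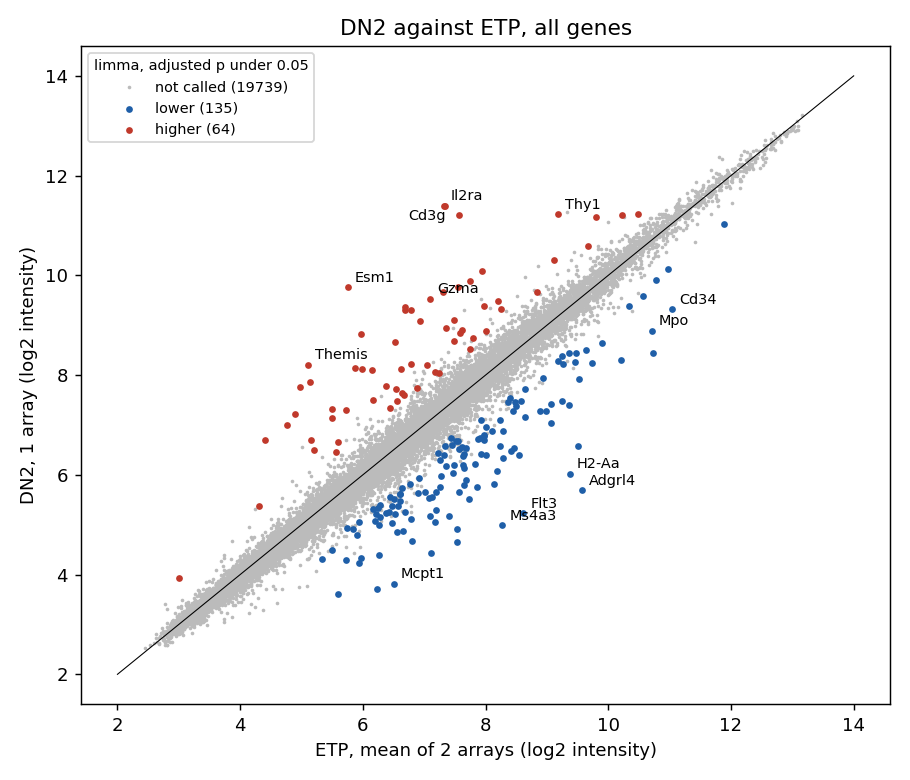
Each point is 1 of the 19938 genes, with its mean log2 intensity over 2 ETP arrays (x axis) and its log2 intensity on the DN2 array (y axis); the line marks equal values. The 64 genes called higher (red) and 135 called lower (blue) lie off a narrow band, with Il2ra and Esm1 among those farthest above it and Adgrl4 and Flt3 farthest below.

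Among genes whose products commonly serve as sort markers, Il2ra separates DN2 from ETP by definition, so its rise is no separate result. Il2ra read 6.96 and 7.68 on the ETP arrays and 11.40 on the DN2 array, a difference of 4.08 (standard error 0.26, log2) or 16.9-fold at an adjusted p of 6.2e-05 (limma). The DN2 value was far above both ETP arrays and beside the DN3 arrays, at 11.30 and 11.23. Thy1, a surface protein of T lineage cells, read 9.21 and 9.14 in ETP and 11.23 in DN2 and rose 4.15-fold (adjusted p = 0.000322). Il7r, the interleukin-7 receptor alpha chain on which early T and B cells depend, read 7.27 and 7.83 against 9.77 and rose 4.67-fold (adjusted p = 0.000698). Flt3, a cytokine receptor of multipotent progenitors, read 8.55 and 8.66 in ETP and 5.23 in DN2, a 10.4-fold fall (adjusted p = 1.28e-05) to the level of the DN3 arrays (5.19 and 4.99). As sort markers, Thy1, Il7r and Flt3 may also differ through the gates themselves, which was not tested.

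Cd44, the adhesion receptor that DN3 cells lose, read 8.22 and 8.52 in ETP and 7.46 in DN2 and fell 1.88-fold (adjusted p = 0.0251), against 5.63 and 5.62 in DN3. Its call was lost without ETP replicate 2 (adjusted p = 0.135) or either DN3 array (0.0613). Kit, the stem cell factor receptor shared by ETP and DN2, read 9.50 and 9.23 against 9.24, a difference of -0.13 with a 95% interval of -0.72 to 0.47, and was at 7.20 and 6.84 in DN3. Cd24a (difference 0.08), Cd93 (-0.22) and Cd27 (-0.80, adjusted p = 0.0711) were not called either. In all, 3 of the 9 measured sort markers were called higher and 2 lower, around a list median of -0.13.

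Of the CD3 chains, which carry the T cell receptor's signal into the cell, Cd3g and Cd3d rose. Cd3g read 6.68 and 8.45 on the ETP arrays and 11.21 on the DN2 array, a 12.5-fold rise (adjusted p = 0.00569, limma), with 12.43 and 12.38 in DN3. The ETP arrays themselves were far apart here, so the difference of Cd3g was 4.53 against ETP replicate 1 and 2.76 against ETP replicate 2. Cd3d, its neighbour shown above, read 5.51 and 6.80 against 8.10, a 3.86-fold rise (adjusted p = 0.0398), while DN3 was at 12.07 and 12.04. Unlike Cd3g, the Cd3d call was lost when an array of HSC, LMPP, CLP or DN3 was left out (adjusted p 0.0636 to 0.0832). Cd3e (6.26 and 6.24 against 7.07; adjusted p = 0.0964) and Cd247, the zeta chain (6.79 and 6.80 against 7.17; 0.524), did not pass.

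Among recombination genes, Lig4, the ligase that seals rearranged segments, read 7.43 and 7.53 in ETP and 9.10 in DN2 and rose 3.07-fold (adjusted p = 0.00183). Rag1, a subunit of the enzyme that cuts the segments, read 6.85 and 7.25 against 8.21 and rose 2.23-fold (adjusted p = 0.0222), well below the 11.45 and 11.63 of DN3. Leaving out ETP replicate 1 ended the Rag1 call (adjusted p = 0.109). Its partner Rag2 (7.14 and 7.53 against 7.86) was not called, nor was Ptcra, the pre-T cell receptor alpha chain, at 6.38 and 6.23 against 6.22 while DN3 read 8.01 and 7.76. Over this list of CD3, pre-T cell receptor and recombination genes, 4 of 14 measured members were called higher and none lower, with a median difference of 0.29; in a fit of the 5 thymic arrays alone 1 was called higher.

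Of 20 measured genes that act downstream of the T cell receptor, 4 were called higher and none lower, and the median difference was 0.16. Themis, which tunes receptor signalling in thymocytes, read 4.93 and 5.28 in ETP, 8.21 in DN2 and 10.12 and 10.08 in DN3, an 8.59-fold rise into DN2 (adjusted p = 0.000212). Trat1, an adaptor that associates with the receptor complex, read 6.31 and 7.25 against 9.30 and rose 5.75-fold (adjusted p = 0.00567). Skap1, an adaptor that links the receptor to integrins, read 5.36 and 5.61 against 7.32 and rose 3.56-fold (adjusted p = 0.000801). Lat, the scaffold phosphorylated after receptor engagement, was already at 9.67 on both ETP arrays and rose 1.89-fold to 10.59 (adjusted p = 0.0219), a call lost without ETP replicate 1 or 2 (0.101 and 0.106) or a DN3 array (0.0537). Cd28, the costimulatory receptor, stood at 5.72 and 5.79 in ETP and 5.78 in DN2 while the DN3 arrays read 8.99 and 8.84.

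In a bulk sample, fewer cells that hold a transcript and less of it per cell cannot be told apart, which touches each of these values. DN2 levels of Cd3d, Themis and Rag1 lay between those of ETP and DN3, whereas Il2ra, Il7r and Trat1 were at DN3 levels. Il2ra, at 11.40 in DN2, lay slightly above both DN3 arrays (11.30 and 11.23). Esm1 lay farthest above DN3 among the largest rises. It encodes a secreted proteoglycan, read 5.73 and 5.76 in ETP and 9.76 in DN2, a 16.1-fold rise (adjusted p = 1.02e-05), and averaged 8.26 in DN3.

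**Figure D2:**
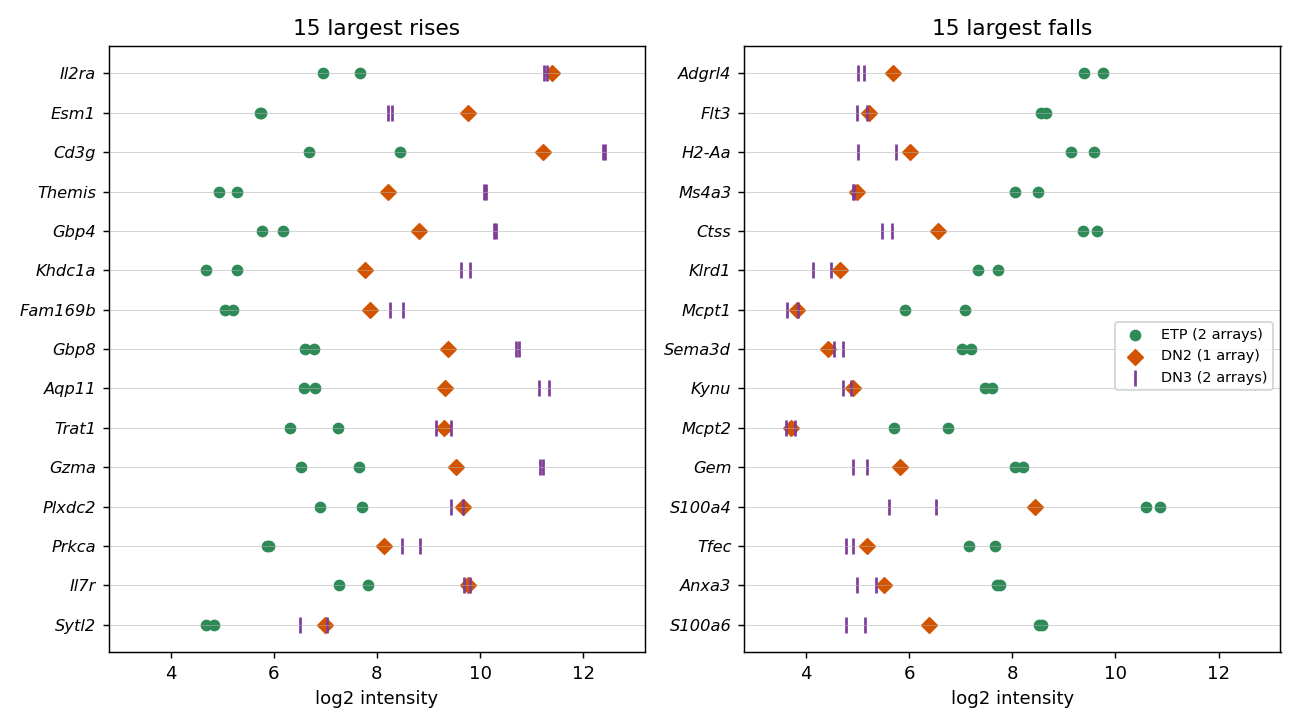
Log2 intensity (x axis) of the 15 genes with the largest rise and the 15 with the largest fall in DN2, with 1 point per array for ETP (circles), DN2 (diamonds) and DN3 (ticks). The ETP circles lie apart from the DN2 diamond in every gene, and in Esm1 the diamond lies well above both DN3 ticks.

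Other genes among the 15 largest rises belonged to several families. Gbp4 (5.77 and 6.17 against 8.82) and Gbp8 (6.78 and 6.60 against 9.37), guanylate-binding proteins of the interferon response, rose 7.23-fold and 6.43-fold, and Gbp9 (6.43 and 6.62 against 8.67), named after its values were seen, rose 4.43-fold. These are similar genes that lie side by side, so probes may share signal and the genes are uncertain as separate results. The list of classical interferon response genes had a median difference of -0.39, with 5 differences above 0. Over 18 measured genes of the classical interferon response none was called higher and 1 lower, Ifit1 (6.38 and 6.59 against 5.37), which was lost without ETP replicate 2 (adjusted p = 0.0959); without ETP replicate 1 there were 3.

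Gzma, a granule protease of cytotoxic cells, read 6.52 and 7.66 in ETP, 9.53 in DN2 and 11.16 and 11.21 in DN3, a 5.43-fold rise (adjusted p = 0.0113, limma). The ETP arrays differed by over 1 log2 unit in Gzma, as they did in 6 other called genes (Bcl2a1c, Cd3d, Cd3g, Mcpt1, Mcpt2 and Mir363) and in 37 of all genes. Prkca, a protein kinase C, read 5.91 and 5.86 against 8.14 and rose 4.78-fold, and Sytl2, a protein of vesicle transport, read 4.69 and 4.85 against 6.99 and rose 4.67-fold. Aqp11, a water channel, read 6.59 and 6.80 against 9.31 and rose 6.13-fold. Khdc1a (6.92-fold), Fam169b (6.66-fold) and Plxdc2 (5.14-fold) complete the 15. Each of the 15 kept its call when any of the other 10 arrays was left out. In a fit of the thymic arrays alone, the calls of Cd3g, Gzma, Plxdc2 and Trat1 were lost. Leaving out an ETP array also takes the gap between the ETP arrays out of the spread. It was therefore no check on genes such as Cd3g and Gzma, where that gap was wide.

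Outside the rule for named genes, a segment of the T cell receptor gamma locus, Trgv1, read 7.15 and 7.53 in ETP and 11.40 in DN2, a 16.7-fold rise to about the DN3 mean of 11.58. Trgv1 averaged 8.20 in HSC, above both ETP arrays, and 4.80 in LMPP and in CLP. The delta segment Trdv2-2 read 4.73 and 5.04 against 7.22 and rose 5.03-fold. Such segments share sequence with their relatives, so the identity of the segment is uncertain, and both were named after their values were seen. No member of the list of 11 measured gamma delta T cell genes was called, with 1 at an unadjusted p under 0.05 (limma).

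A microRNA gene was also among the rises and is shown because its mature form has a seed shared by a family. Its sequence is that of RefSeq for GRCm38.p6, chrX:52741697-52741718 on the minus strand, with the seed (bases 2 to 8) in capitals.
mmu-miR-363-3p: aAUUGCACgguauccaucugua

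Mir363 read 4.95 and 3.85 on the ETP arrays, 6.69 on the DN2 array and 7.11 and 7.12 in DN3, a 4.88-fold rise (adjusted p = 0.00788, limma) in a gene named after its values were seen. Of the microRNA genes known to lie in a cluster with it, Mir106a (3.95 and 3.95 against 3.84), Mir20b (3.97 and 3.75 against 3.66), Mir19b-2 (3.27 and 3.29 against 3.15) and Mir92-2 (3.94 and 4.02 against 4.10) stayed far below the array median of 6.07 in ETP and DN2. Whether the probes read the precursor or the mature form was not tested.

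Among 21 measured transcription factors of T lineage commitment, 1 was called higher and none lower, and the median difference was 0.10. Tcf7, a T lineage marker, was not among these 21, so the counts do not cover it. Patz1, a zinc finger protein, read 7.80 and 7.67 in ETP and 8.52 in DN2 and rose 1.72-fold (adjusted p = 0.0357). That call was lost without ETP replicate 1 or 2 (adjusted p = 0.0882 and 0.183), without an LMPP array (0.0516) and without a DN3 array (0.0812). Bcl11b, the factor that closes off the other fates, read 6.16 and 6.13 against 6.97, with a difference of 0.82 (95% interval 0.38 to 1.27) at an adjusted p of 0.125. Gata3, required from the ETP stage on, read 7.22 and 6.67 against 7.82, with a difference of 0.87 (0.29 to 1.45) at an adjusted p of 0.29. For both, the DN2 value lay above both ETP values, with standard errors of 0.20 for Bcl11b and 0.26 for Gata3 against 0.15 for Patz1.

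Runx1 (8.62 and 8.49 against 9.16; adjusted p = 0.123), Ets1 (6.95 and 6.91 against 7.73; 0.112) and the E protein Tcf12 (8.25 and 8.59 against 9.21; 0.145) had differences of 0.61, 0.80 and 0.79 and were not called. Lef1, a partner of the Wnt pathway that is known from later thymocytes, read 6.25 and 6.11 against 6.59, with 9.31 and 9.57 in DN3. The remaining members, Ets2, Runx3, Myb, Gfi1, Satb1, Tox, Zfpm1, Ikzf1, Ikzf2, Ikzf3, Hes1, Nfatc3, Zbtb7a and Zbtb7b, had differences between -0.43 (Tox) and 0.41 (Ikzf2). Of the 21 factors, 9 had an unadjusted p under 0.05 (limma), against 1434 of all 19938 genes.

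Il2ra was the single called member among 18 measured genes of the Notch pathway and its known targets, and the list median was -0.02. Hes1, a repressor switched on by Notch, read 8.19 and 8.27 in ETP and 8.24 in DN2, a difference of 0.00 (95% interval -0.32 to 0.33), while its mean in LMPP was 6.06. The receptor gene Notch1 read 7.67 and 7.45 against 7.88, Notch2 6.44 and 6.20 against 6.08 and Notch3 6.34 and 6.32 against 6.16. Dtx1 (0.14), Nrarp (-0.17), Heyl (0.32), Hey1 (-0.02), Hes5 (0.01) and Myc (-0.09), known as Notch targets, had small differences, as did the coactivators Maml1 (-0.23) and Maml2 (-0.27), the DNA-binding partner Rbpj (-0.02) and the glycosyltransferases Lfng (0.15), Mfng (-0.37) and Rfng (0.23).

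Id2, an inhibitor of E proteins that favours innate lymphoid fates, read 7.46 and 7.82 in ETP and 6.38 in DN2 and fell 2.40-fold (adjusted p = 0.0261). Without ETP replicate 2 the adjusted p was 0.155, and without a DN3 array it was 0.0613. It was the only called gene among 7 E protein and Id genes, with Tcf3 at 0.08, Tcf4 at -0.41 and Id3 at 0.48 not passing.

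**Figure D3:**
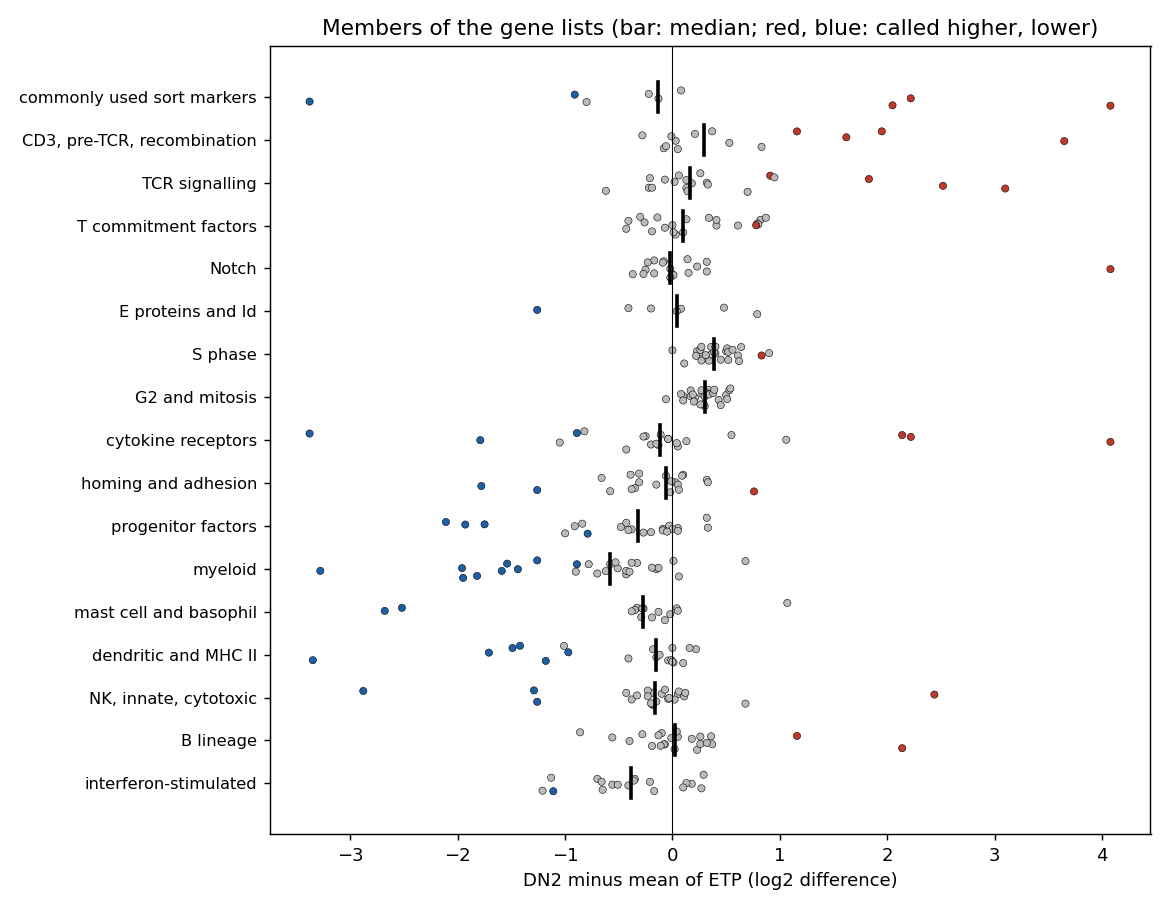
Each point is 1 gene of a list, placed by its DN2 minus ETP difference (x axis, log2), with genes called higher in red, called lower in blue and not called in grey; black bars are list medians. Calls lie to the right in the CD3 and signalling lists and to the left in the progenitor, myeloid and MHC class II lists, and nearly all cell cycle genes lie a little to the right of 0.

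Of 22 transcription factors of multipotent progenitors, 4 were called lower and none higher, with a median difference of -0.32. Meis1, a homeobox factor of stem cells, read 7.78 and 7.94 in ETP, 5.75 in DN2 and 4.82 and 4.81 in DN3, a 4.33-fold fall (adjusted p = 0.00131). Lmo2, a bridging factor of blood progenitors, read 8.43 and 8.50 against 6.54 and fell 3.80-fold (adjusted p = 0.00362). Mef2c, a factor of lymphoid and myeloid progenitors, read 9.11 and 9.37 against 7.49 and fell 3.36-fold (adjusted p = 0.000826). Hoxa9 read 7.21 and 7.22 against 6.43 and fell 1.72-fold (adjusted p = 0.0458), a call lost without ETP replicate 1 or 2 (0.174 and 0.194), an LMPP array (0.0725) or a DN3 array (0.0866).

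Other progenitor factors did not pass. Spi1, the PU.1 gene of myeloid fate, read 7.40 and 7.80 in ETP and 6.69 in DN2 (adjusted p = 0.159). Bcl11a read 9.60 and 9.33 against 8.46 (0.19), and Hhex read 10.47 and 10.51 against 9.65 (0.0905), while in DN3 they were at 7.12 and 6.97 and at 6.06 and 5.90. Erg, Lyl1, Tal1 and Nfe2 differed by -0.20, -0.09, -0.09 and 0.33. Of other surface proteins of progenitors, Adgrl4, an adhesion G protein-coupled receptor, had the largest measured fall: 9.39 and 9.75 in ETP against 5.69 in DN2, which is 14.8-fold (adjusted p = 1.02e-05). Cd34, a sialomucin of progenitors named after its values were seen, read 10.92 and 11.17 against 9.32 and fell 3.29-fold (adjusted p = 0.00307), with a mean of 5.59 in DN3.

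Of 27 measured myeloid genes, 9 were called lower in DN2 and none higher, and the list median was -0.58. Ms4a3, a membrane protein of granulocyte and monocyte precursors, read 8.05 and 8.49 in ETP and 4.99 in DN2 and fell 9.72-fold (adjusted p = 0.000384) to the DN3 level of 4.93 and 4.92. Mpo, the peroxidase of primary granules, read 10.76 and 10.67 against 8.89 and fell 3.54-fold (adjusted p = 0.0107), which left it above the 5.78 and 5.68 of DN3. Ctsg, a granule protease, read 9.16 and 9.56 against 7.40 and fell 3.88-fold (adjusted p = 0.00667). S100a8, a calcium-binding protein of neutrophils, read 8.05 and 8.50 against 6.33 and fell 3.85-fold (adjusted p = 0.0193). The other 5, named after their values were seen except Ccr2, were Prtn3, Elane, Cd33, Ccr2 and Csf1r, which fell 2.91-fold, 2.71-fold, 3.02-fold, 2.40-fold and 1.85-fold.

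This count depended on the ETP arrays: 5 myeloid genes were called lower without ETP replicate 1 and 2 (Ms4a3 and Prtn3) without ETP replicate 2. Mpo had an adjusted p of 0.0671 and 0.0674 without the one or the other, Ctsg 0.0591 and S100a8 0.125 without ETP replicate 2. Elane (0.101 and 0.145) and Cd33 (0.23 and 0.0872) were lost without either ETP array, Cd33 also without a CLP or DN3 array (0.0663 and 0.0675). The mean level of the whole myeloid list was 7.30 and 7.51 on the ETP arrays, 6.59 on the DN2 array and 5.86 and 5.93 in DN3. Tyrobp, a signalling adaptor of myeloid and natural killer cells, stayed at 11.24 in DN2 against 11.67 and 11.68 in ETP and 6.56 and 7.08 in DN3. The neutrophil granule genes Ngp, Ltf and Camp were below the array median of 6.07 in ETP and DN2. Whether myeloid cells carried along in the sorts had a part in these falls was not tested.

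Among 19 genes of dendritic cells or MHC class II, 6 were called lower and none higher, with a median of -0.15, and all 6 belong to antigen presentation on MHC class II. H2-Aa, the alpha chain of the I-A molecule, read 9.14 and 9.59 in ETP and 6.02 in DN2 and fell 10.2-fold (adjusted p = 0.000708). Its partner H2-Ab1 read 8.69 and 8.59 against 7.15 and fell 2.81-fold (adjusted p = 0.00692). H2-Ob, a subunit of the peptide-loading regulator H2-O, read 9.05 and 8.92 against 7.28 and fell 3.27-fold (adjusted p = 0.000742), and Cd74, the invariant chain, read 6.63 and 6.72 against 5.26 and fell 2.67-fold (adjusted p = 0.00382). H2-Eb1 and H2-Oa fell 2.27-fold and 1.95-fold, and both calls were lost without ETP replicate 2 (adjusted p = 0.0565 and 0.155), H2-Oa also without a DN3 array (0.0658). Ciita, the master regulator of these genes, read 5.68 and 5.70 against 5.51, below the array median throughout.

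Of the defining markers of dendritic cells, H2-Aa and Cd74 fell, as given above, while Siglech, Itgax, Xcr1 and Zbtb46 were not called. Siglech read 5.55 and 5.53 in ETP and 5.76 in DN2, Itgax 5.99 and 5.95 against 5.82, Xcr1 4.40 and 4.42 against 4.42, and Zbtb46 5.49 and 5.53 against 5.49, each below the array median. The mean level of the whole list was 6.66 and 6.72 in ETP, 6.08 in DN2 and 5.91 and 5.89 in DN3. Whether dendritic cells carried along in the sorts had a part in these falls was not tested.

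Of 24 natural killer and innate lymphoid genes, 3 were called lower (Klrd1, Fasl and Id2) and 1 higher (Gzma, above). Klrd1, the CD94 chain of natural killer receptors, read 7.34 and 7.73 in ETP and 4.66 in DN2 and fell 7.35-fold (adjusted p = 0.00121). Fasl, the death ligand of cytotoxic cells, read 7.94 and 8.03 against 6.69 and fell 2.45-fold (adjusted p = 0.00755), a call lost without ETP replicate 2 (0.0665), which left 1 lower call in the list. Of the defining markers, Gzma rose, as given above. The others, Ncr1 (4.08 and 4.40 against 4.14), Klrb1c (3.60 and 3.32 against 3.43) and Eomes (5.16 and 4.94 against 4.91), were below the array median in both populations. The list mean was 6.36 and 6.52 in ETP, 6.24 in DN2 and 5.67 and 5.64 in DN3.

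Among 15 mast cell and basophil genes, Mcpt1 (5.92 and 7.08 in ETP, 3.82 in DN2) and Mcpt2 (5.70 and 6.76 against 3.71) fell 6.41-fold and 5.73-fold. They are close copies of each other whose signals may not be separable, and their ETP values lay over 1 log2 unit apart. Cpa3, the carboxypeptidase of mast cells that early thymocytes also express, read 9.76 and 10.22 against 11.06 and was not called (adjusted p = 0.192). Apart from Cpa3, the defining markers Ms4a2, Fcer1a, Mcpt4, Tpsb2 and Cma1 were below the array median on the ETP and DN2 arrays. With dim genes left out, neither protease was tested and no member was called.

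Few markers of other cell types were called. Of 23 B lineage genes 2 were called higher, Ly6d (7.55 and 7.93 against 9.88; 4.42-fold) and Rag1, both known from T cell precursors too, while Ebf1 (4.44 and 4.26 against 4.40), Cd79a (4.50 and 4.22 against 4.59) and Pax5 (6.09 and 5.97 against 5.96) were near or below the array median. No call was made among 14 macrophage genes, of which 13 had an ETP mean below the array median and 14 a DN2 value below it, nor among 18 stromal, epithelial and endothelial genes (limma; 2 and 4 genes at an unadjusted p under 0.05). Of 17 erythroid and megakaryocytic genes 1 was called, Car2, a carbonic anhydrase that read 9.08 and 9.06 against 7.03 and fell 4.11-fold (adjusted p = 0.0005); without ETP replicate 1 there were 2. Of 16 genes of later thymocytes, Aqp11 rose and Icos fell (7.30 and 7.33 against 6.40). The Icos call was lost without an ETP, HSC, LMPP or CLP array.

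Among 22 measured cytokine receptors 3 were called higher, Il2ra, Il7r and Il17rb, and 3 lower, Flt3, Il18r1 and Csf1r. Il17rb, a receptor chain for interleukin-25, read 7.98 and 7.90 in ETP and 10.08 in DN2, a 4.42-fold rise (adjusted p = 0.00162), above the 9.28 and 9.27 of DN3. Il18r1, the interleukin-18 receptor, read 7.46 and 7.90 against 5.90 and fell 3.46-fold (adjusted p = 0.0121), and Il18rap, its neighbour and signalling partner, read 8.21 and 8.61 against 6.47 and fell 3.84-fold (adjusted p = 0.00135). Without ETP replicate 2 the lower calls of this list were 1, with an adjusted p of 0.0887 for Il18r1 and 0.106 for Csf1r, and without an HSC array they were 5; Csf1r was also lost without ETP replicate 1 (0.0558).

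Of 21 homing and adhesion genes, Itga4, the alpha 4 integrin, was called higher (10.49 and 10.48 against 11.24; 1.69-fold) and the chemokine receptors Ccr9 and Ccr2 lower. Ccr9, which guides progenitors to the thymus, read 6.33 and 6.97 in ETP, 4.87 in DN2 and 7.40 and 7.84 in DN3, so the DN2 array was the lowest of the 3 populations. Its fall was 3.43-fold (adjusted p = 0.00734) and held in each of the 10 fits with 1 array left out, but the call was lost with the thymic arrays alone. Itga4 was lost without ETP replicate 1 or 2 or a DN3 array. Ccr2 was lost without ETP replicate 2 or any array of HSC, LMPP, CLP or DN3.

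Among genes of the cell cycle 1 was called. Of 27 S phase genes, 26 had a difference above 0, the median was 0.39, and 1, Rrm2, a subunit of ribonucleotide reductase, was called (8.77 and 8.92 against 9.67; 1.78-fold; adjusted p = 0.0229). Rrm2 was lost without ETP replicate 1 or 2 (adjusted p = 0.13 and 0.0704). Of 28 genes of G2 and mitosis, 27 had a difference above 0 and the median was 0.30, but none was called (limma; 4 at an unadjusted p under 0.05), and Birc5, the survivin gene, had the largest difference at 0.54 (adjusted p = 0.326). Against each ETP array alone the medians were 0.47 and 0.33 for S phase and 0.37 and 0.21 for G2 and mitosis. The mean S phase level was 8.63 and 8.78 in ETP, 9.12 in DN2 and 9.01 and 9.03 in DN3.

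The survival gene Bcl2 read 7.43 and 7.75 in ETP and 8.84 in DN2 and rose 2.37-fold (adjusted p = 0.0322), the 1 call among 14 genes of its family. It was lost without ETP replicate 1 or 2 (adjusted p = 0.181 and 0.0704), an LMPP array (0.0549) or a DN3 array (0.0672). Of 21 genes associated with stem cells, Mllt3 was called higher (8.07 and 8.43 against 9.32) and Meis1 and Eya1 lower. Mllt3 and Eya1 (7.44 and 7.91 against 6.54) were lost without ETP replicate 2 (adjusted p = 0.0704 and 0.169) and without a DN3 array (0.099 and 0.0812), Mllt3 also without ETP replicate 1 (0.255), and both without an HSC or CLP array. Of 8 Gimap genes 1 was called, Gimap6 (10.44 and 10.70 against 9.59), lost without ETP replicate 2 (0.0887).

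No call was made among 15 cell cycle inhibitors, 23 immediate early genes, 21 genes of growth and nutrient uptake or 21 genes of DNA methylation and Polycomb, where 5, 4, 2 and 4 genes had an unadjusted p under 0.05 (limma). Over all 19938 genes that number was 1434. Of 22 genes of the TNF superfamily and its receptors, Fasl was the only one called.

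Further genes among the 15 largest falls came from lysosomes, calcium-binding proteins and metabolism. Ctss, a lysosomal protease that processes the invariant chain, read 9.37 and 9.64 in ETP and 6.57 in DN2 and fell 7.65-fold (adjusted p = 0.000805). The S100 proteins S100a4 (10.60 and 10.87 against 8.44) and S100a6 (8.52 and 8.57 against 6.39) fell 4.89-fold and 4.46-fold. Kynu, an enzyme of tryptophan breakdown, read 7.48 and 7.60 against 4.92 and fell 6.14-fold (adjusted p = 0.0002). Sema3d, a secreted semaphorin, and Gem, a small GTPase, fell 6.39-fold and 4.95-fold. Anxa3, a membrane-binding annexin, and Tfec, a transcription factor of macrophages, fell 4.63-fold and 4.69-fold. Among the 15 largest falls, the calls of S100a4, Mcpt1 and Mcpt2 were lost in a fit of the thymic arrays alone. Without ETP replicate 1 or 2 the calls of Anxa3 (adjusted p = 0.0525 and 0.0704), S100a6 (0.0707 and 0.0887) and Tfec (0.0882 and 0.223) were lost, Tfec also without a CLP or DN3 array (0.0704 and 0.0849), and the other 12 of these 15 held in each of the 10 fits.

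Called genes lay side by side in several places. Over 19894 pairs of neighbours in the RefSeq gene order, 15 pairs were called the same way (4 higher, 11 lower), 0 in opposite ways, and these held 26 genes. Both genes of a pair kept their calls in 6 of the 15 pairs without ETP replicate 2, in 9 without a DN3 array and in 10 without ETP replicate 1. The MHC class II run of H2-Ob, H2-Ab1, H2-Aa and H2-Eb1 fell together, as did Prtn3 with Elane, Prg2 with Prg3, S100a4 with S100a5 and S100a6, Il18r1 with Il18rap, Gem with Cdh17, Tmem176b with Tmem176a and Mcpt1 with Mcpt2. Cd3g with Cd3d, the 3 guanylate-binding proteins, and Dgke with Dgkeos, which overlap so that their signals may be shared, rose together. Genes of this paragraph that were not named before were picked after their values were seen.

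The promoter motifs were counted over all called genes with a RefSeq promoter, as a description without a test. GTGGGAA was in 17.8% of the 45 promoters of genes called higher, 8.82% of the 102 of genes called lower and 7.08% of all 15614. CACCTG was in 37.8%, 19.6% and 22.2%, AGATAA in 20%, 11.8% and 10.8%, and CTTTGAA in 2.22%, 8.82% and 5.17%. For genes called higher these shares rest on only 8, 17, 9 and 1 promoters, in the order given. The Cd3g and Cd3d windows counted here lie close to each other, so neighbours are not independent.

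DN3 and LMPP share no array with DN2 and ETP, but both comparisons came from the same fit and shared its spread for each gene. The overlaps below are therefore not independent. The called genes were looked up in the difference between DN3 and LMPP, which are farther apart on the same path. There, 1995 genes were called (10% of all), 1088 higher in DN3 (5.46%) and 907 lower (4.55%). Higher calls were 54.5% of these, 65.3% when the arrays were centred on their medians and 48.5% when they were quantile normalized once more, so which direction had more calls depended on the scaling. The share was also under 50% at a fold of at least 2 (43.7%), at an adjusted p under 0.01 (48.3%), without LMPP replicate 1 (44.8%) and without DN3 replicate 2 (45%). Of the 64 genes higher in DN2, 54 (84.4%) were higher in DN3 than in LMPP and 0 lower, which is 4.96% of the 1088. Their median DN3 minus LMPP difference was 2.26, against -0.04 over all genes. Of the 135 genes lower in DN2, 94 (69.6%) were lower in DN3 too, 10.4% of the 907, and 6 were higher, with a median of -1.50. Without ETP replicate 2, 43 genes were called higher and 33 lower in both comparisons, and without ETP replicate 1 the counts were 37 and 63.

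**Figure D4:**
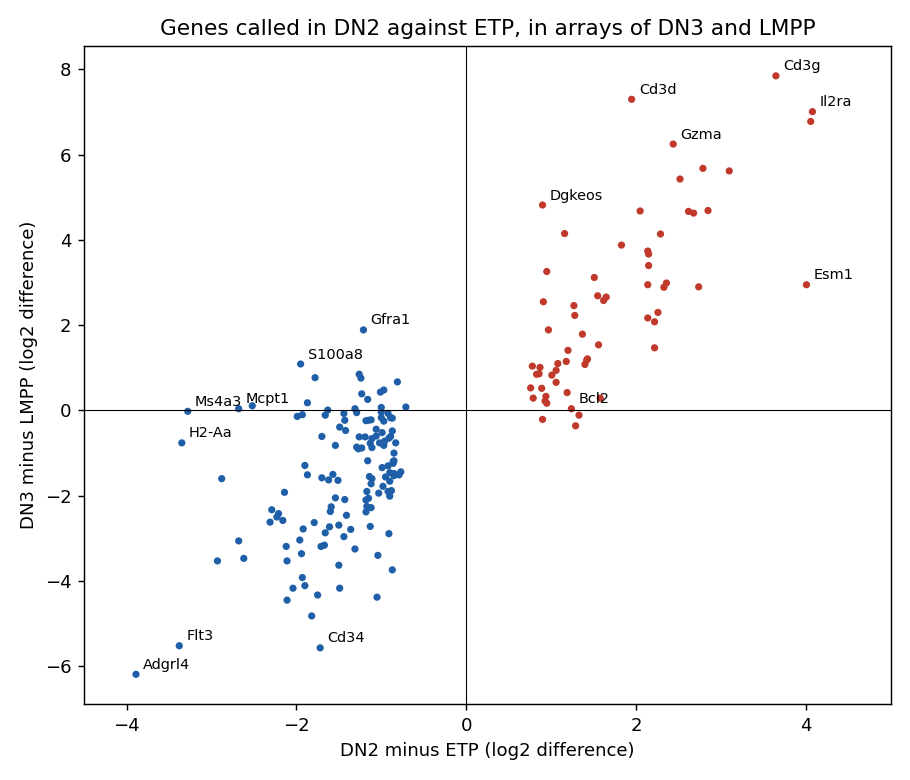
Each of the 199 called genes is placed by its DN2 minus ETP difference (x axis, log2) and its DN3 minus LMPP difference (y axis, log2), red for higher and blue for lower in DN2. Red points lie mostly above 0 on the y axis and blue ones mostly below it, with Gfra1 and S100a8 among the exceptions and Ms4a3 and Mcpt1 near 0.

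The 10 genes higher in DN2 that were not called between DN3 and LMPP were Bcl2, Car13, Cox7a1, Dna2, Fut8, Olfr1160, Pfkfb3, Plscr1, Ppic and Stag3. Bcl2 averaged 9.20 in LMPP, 9.24 in DN3 and 8.93 in HSC, so the ETP values of 7.43 and 7.75 were the low ones. Fut8, a fucosyltransferase, read 9.09 and 9.14 in ETP, 10.31 in DN2 and averaged 8.95 in DN3 and 8.52 in LMPP, with DN2 highest. Pfkfb3, a regulator of glycolysis, read 7.85 and 7.73 against 8.74 and averaged 7.93 in DN3 and 7.76 in LMPP. Fut8 held in each of the 10 fits with 1 array left out, while Pfkfb3 was lost without ETP replicate 1 or 2 (adjusted p = 0.0841 and 0.153) or a DN3 array (0.0543).

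The 6 genes with opposite directions were Ccr9, Ciart, Gfra1, Id2, S100a8 and Serpinb6b. Gfra1, a receptor for GDNF family ligands, read 7.74 and 8.22 in ETP and 6.78 in DN2 and averaged 8.64 in DN3 and 6.75 in LMPP. Its fall into DN2 was 2.31-fold (adjusted p = 0.0154; 0.0683 without ETP replicate 2), so its DN2 level lay below both its neighbours on the path, as with Ccr9. S100a8 averaged 6.30 in DN3 and 5.21 in LMPP, with DN2 at 6.33 and ETP at 8.05 and 8.50.

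The 35 genes lower in DN2 that were not called between DN3 and LMPP included H2-Aa, H2-Ab1, H2-Eb1, Cd74, Ms4a3, Elane, Mcpt1, Mcpt2, Prg2, Prg3, Fasl and Cd7. H2-Aa averaged 6.14 in LMPP, 5.86 in CLP and 5.38 in DN3, and Ms4a3 4.94, 5.15 and 4.93, so that among these populations they were high on the ETP arrays. HSC was the exception for Ms4a3, at 9.73. Fasl averaged 4.29 in LMPP, 4.15 in CLP and 4.24 in DN3 against 7.94 and 8.03 in ETP. Prg3, a granule protein of eosinophils, read 7.78 and 7.53 in ETP and 5.79 in DN2 and averaged 5.72 in LMPP. Cd7, a surface protein of early T and natural killer cells, read 8.81 and 9.33 against 7.42 and averaged 6.33 in LMPP and 6.22 in DN3. Flt3 (10.61 in LMPP), Adgrl4 (11.27) and Meis1 (9.27), by contrast, were higher in LMPP than in ETP.

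**Figure D5:**
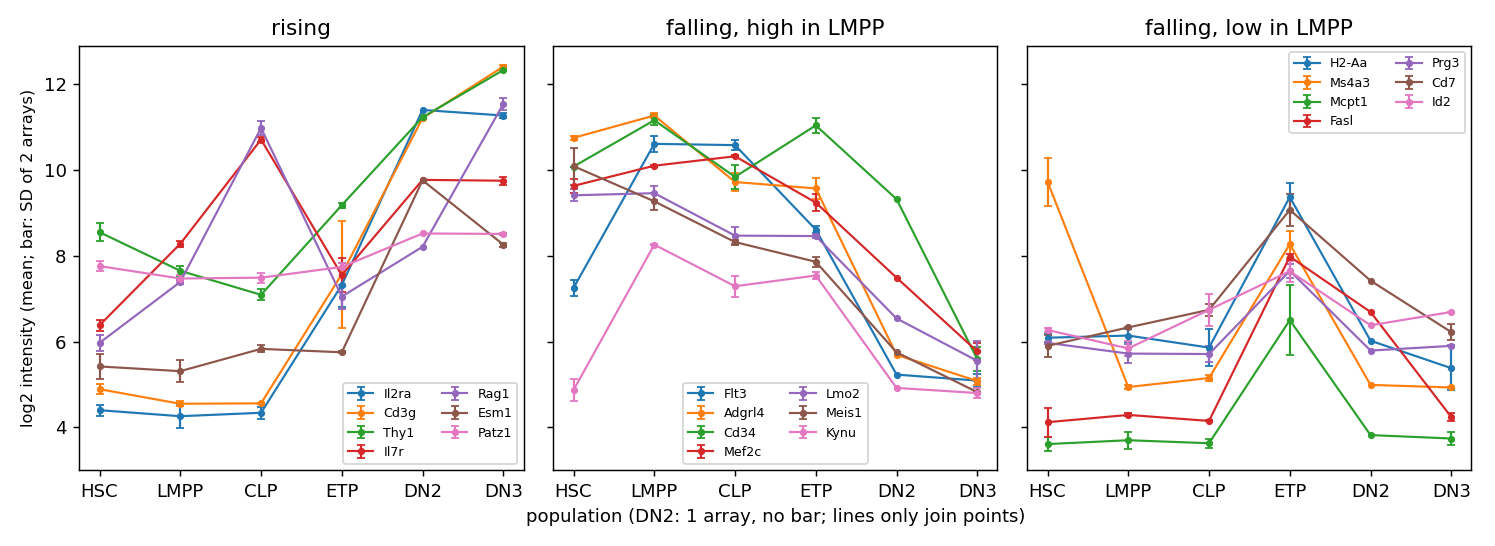
Mean log2 intensity (y axis) of named genes over the 6 populations (x axis), with bars for the SD of 2 arrays; DN2 has 1 array and no bar, and lines only join the points. Il2ra and Cd3g rise steeply from ETP to DN2, Flt3 and Adgrl4 descend from LMPP on, and H2-Aa and Fasl peak in ETP.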

How the data were processed

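The authors deposited log2 intensities of 11 arrays, made by RMA (background correction, quantile normalization and summary per probe set) per the submitters' processing notes; the version and the annotation build were not given in the sources used here. Of 35556 probe sets, 21789 carried 1 gene symbol, 1621 several and 12146 none; those with 1 gave 19938 genes, and 999 genes had several probe sets, of which the one with the highest mean over all arrays stood for the gene. limma 3.58.1 (R 4.3.3) was fitted to all 11 arrays with 1 mean for each of 6 populations, which left 5 residual degrees of freedom, and p-values were adjusted over all genes by the Benjamini-Hochberg method. The number of arrays limits the precision. The array median, 6.07, served as a guide to dim values. All sample columns were used.

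The 30 gene lists and the members were chosen with earlier results of these data known. Named genes are the 15 largest rises and falls among called genes, without predicted genes, receptor segments, microRNAs, small RNAs, histones and olfactory or vomeronasal genes; up to 4 called members of each list, or the member with the largest difference; and all sort marker, commitment factor and Notch genes. Other genes are described as list members or were picked after their values were seen. The fit was tested on simulated data in which DN2 varied as the other arrays did, so that assumption itself was not tested. Alternatives were the threshold, fold, dim genes, normalization, probe set rule, variance model, array weights, replicate block, choice of arrays and each array left out. Sequences are from RefSeq tables.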

Additional observations from a re-analysis of the deposited data

How the results depend on the processing

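Of the 199 calls in DN2 against ETP, the counts under other settings were 96 (42 higher, 54 lower) at an adjusted p under 0.01 and 91 (37 higher, 54 lower) with thymic arrays only, where 83 of the 199 were still called. With ETP and DN2 arrays only, 0 genes were called, 0 higher and 0 lower (limma; 1364 at an unadjusted p under 0.05), with 1 residual comparison between the ETP arrays as the whole measure of spread. Leaving out 1 array gave 92 to 200 calls, 41 to 74 higher and 47 to 126 lower. DN3 against LMPP gave 1083 genes at an adjusted p under 0.01, 718 with a fold of at least 2, and 948 to 2203 with 1 array left out. Genes lower in both comparisons numbered 40, 60 and, with 1 array left out, 33 to 87; genes higher in both ranged from 37 to 61. The cause of these shifts was not tested. Of the values of named genes under the alternatives, 2059 kept direction and side of the threshold, 236 fell below it, 2 passed it and 18 near 0 moved; none of the called genes changed direction.

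The replicate numbers were not taken as pairs, since not every correlation of deviations was over 0.1. Over 10 pairs of populations it ran from -0.258 to 0.283, with 4 over 0.1 (CLP with LMPP and ETP, LMPP with ETP and DN3). It was below 0 in 4 pairs, all with HSC. A grouping with the HSC replicates numbered the other way round was not tested. With the replicate number as a block, 155 genes were called (58 higher, 97 lower), 148 of them among the 199; of the named genes, Bcl2, Ccr2, Eya1, Hoxa9, Icos, Id2, Itga4, Lat and Patz1 were not called. Without depth counts, dim genes set the limit: 19 genes called higher had ETP means, and 64 called lower DN2 values, below the array median.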
